A study of Mus musculus with 12 samples.

Results

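Calcium stored in the endoplasmic reticulum reaches the cytosol through 2 kinds of release channel. The loss of calcium from the store is sensed by STIM proteins and made good through ORAI channels at the cell surface. The 10 genes described here encode these proteins: the inositol trisphosphate (IP3) receptors *Itpr1*, *Itpr2* and *Itpr3*, the ryanodine receptors *Ryr1*, *Ryr2* and *Ryr3*, the store calcium sensors *Stim1* and *Stim2*, and the plasma membrane channels *Orai1* and *Orai3*. They were taken by symbol from a table of 55487 mouse gene identifiers, and all 10 were found. The choice of genes was made with earlier results of these data known. *Orai2*, the remaining ORAI gene, was not among the 10 and is given only beside *Orai1* and *Orai3*.

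Polyadenylated RNA of whole lenses was sequenced at P7 (postnatal day 7) in 12 libraries, 3 from each of 4 genotypes on the B6J mouse background. Wild-type (WT) lenses were the controls. Knockout lenses (*Trpm3*-KO, KO below) were from mice made by homologous recombination. The mutant lenses were from gene-edited mice that carried the I65M substitution in TRPM3, a cation channel that passes calcium, on 1 allele (*Trpm3*-I/M, I/M below) or on both (*Trpm3*-M/M, M/M below). No treatment is named in the labels, and the methods describe each library as 4 male and 4 female lenses. The study set *Trpm3*-mutant lenses that were developing cataract against clear KO and wild-type lenses.

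In textbook terms, IP3 made by phospholipase C opens the IP3 receptors, whereas ryanodine receptors open on cytosolic calcium or on contact with a voltage sensor and are best known from muscle and neurons. When the store empties, STIM proteins gather beneath the plasma membrane and open ORAI channels, which is called store-operated entry, and SERCA pumps refill the store. In the lens, calcium released through IP3 receptors after growth factor or purinergic stimulation has long been recorded in epithelial cells, and a sustained excess of calcium is a known accompaniment of cataract.

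Between 56162182 and 82090262 reads were counted on genes in a library. *Trpm3* itself was at 250.6 to 285.1 CPM (counts scaled to a common library size with TMM factors) in wild-type, 89.9 to 99.7 in KO, 370.2 to 413.4 in I/M and 468.5 to 484.1 in M/M libraries, so that every KO library lay below every other library. The 12 lens fiber markers all passed the filter and summed to 139779 to 164541 CPM in wild-type, 123321 to 135695 in KO, 116753 to 118883 in I/M and 68427 to 82451 in M/M libraries. *Cryge* and *Crygd* held most of these sums. In KO the mean of *Cryge* was 53432 CPM against 79431 in wild-type, whereas *Crygd* was at 43631 against 38228. At an adjusted p of at most 0.05, 1 of the 12 was lower in KO against wild-type, 11 in I/M and 12 in M/M. In I/M replicate 3, *Xist* was at 0.0721 CPM against 45.8 to 304.9 in the other 11 libraries, and *Ddx3y*, on the Y chromosome, was highest there at 27.2 CPM, which goes against a pool of both sexes. The I/M values of the called members and of the named pathway genes are therefore also given without it. In bulk RNA, fewer cells of a type and less RNA per cell cannot be told apart.

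The filter, 3 or more libraries with a CPM of 5 or more, left 8984 genes, among them 7 of the 10 members. The ryanodine receptors fell below it. The 5 CPM of the filter was taken with library size alone, before TMM factors, and so differs from the CPM printed for each gene. *Orai3* passed only through the mutants, with 2 I/M and 3 M/M libraries at that level and no wild-type or KO library, and *Itpr3* passed with 2 wild-type, 1 KO and 3 M/M libraries. Genes were tested by quasi-likelihood in edgeR, with p-values adjusted by Benjamini–Hochberg over all 8984 genes, and a gene was called at an adjusted p of at most 0.05. In M/M against wild-type, *Itpr1*, *Itpr3*, *Stim2*, *Orai1* and *Orai3* rose, 5 of the 7 tested, and none fell. Over all genes tested, 31.4% were called higher and 31.4% lower in this comparison. *Orai3* would not have passed without the M/M libraries, so that its calls with M/M higher were in part fixed by the filter. Of all genes that passed without M/M, 27.9% were higher and 34.1% lower in M/M against wild-type. No member reached a fold change of at least 2 there, whereas 8.95% of the genes tested were called with such a fold. In I/M against wild-type, *Itpr1*, *Orai1* and *Orai3* rose and *Itpr3* fell, against 17.3% of all genes called higher and 15.3% lower. The mutant and knockout comparisons share the wild-type libraries, and the calls are therefore not independent of each other.

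**Figure D1:**
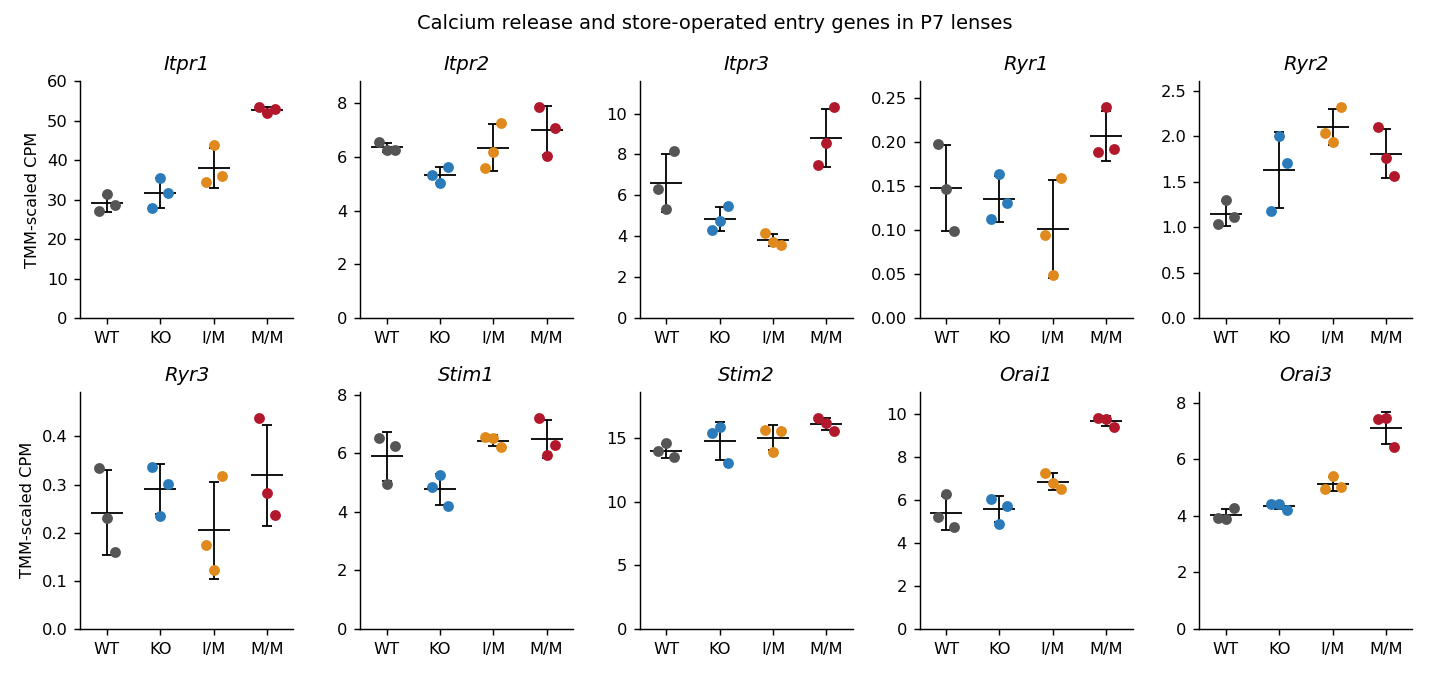
TMM-scaled CPM of each of the 10 genes (vertical axes, each starting at 0) in the 3 libraries of each genotype (points), with the mean and SD as a line and bars. *Itpr1*, *Orai1* and *Orai3* stepped up from wild-type through I/M to M/M, *Itpr3* was lowest in I/M and highest in M/M, and *Ryr1* and *Ryr3* stayed below 0.5 CPM in every library.

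*Itpr1*, the IP3 receptor best known from neurons and smooth muscle, lies on chromosome 6 from 108213096 to 108551109 (GRCm38, forward strand) and had the highest mean per length of the release channels in all 4 genotypes. Its level was 27.1, 31.4 and 28.8 CPM in the wild-type libraries, 27.9, 35.6 and 31.8 in KO, 34.4, 43.8 and 35.9 in I/M, and 53.4, 52.0 and 52.9 in M/M. All M/M libraries lay above all others, all I/M libraries lay above all wild-type libraries, and KO overlapped wild-type. The log2 fold change against wild-type was 0.86 (SE 0.10, 1.81-fold, adjusted p = 4.42e-06) in M/M and 0.39 (SE 0.10, 1.31-fold, adjusted p = 0.00787) in I/M. M/M also exceeded I/M, by 0.47 on the log2 scale (SE 0.09, adjusted p = 0.00107). Without I/M replicate 3, the I/M difference from wild-type was 0.43 (adjusted p = 0.0113), and that between the mutants was also 0.43 (adjusted p = 0.00624).

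*Itpr2*, a receptor with high affinity for IP3, did not follow. Wild-type libraries held 6.55, 6.24 and 6.26 CPM, KO libraries 5.31, 5.03 and 5.62, I/M libraries 5.57, 6.19 and 7.27, and M/M libraries 7.84, 6.05 and 7.06. The mutants overlapped wild-type, and the 3 KO libraries lay below it. In M/M the log2 fold change against wild-type was 0.14 (SE 0.11, adjusted p = 0.293), with a range of 1.96 SE from -0.08 to 0.35. The KO value of -0.26 (SE 0.11) had an unadjusted p of 0.0423 and an adjusted p of 0.253.

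*Itpr3*, the IP3 receptor typical of epithelia and secretory cells, lies on chromosome 17 from 27057304 to 27122223 (forward strand). It moved in opposite directions in the heterozygous and homozygous mutants. It was at 6.33, 5.34 and 8.15 CPM in wild-type, 4.30, 4.74 and 5.47 in KO, 4.14, 3.74 and 3.60 in I/M, and 7.49, 8.57 and 10.3 in M/M. All I/M libraries were below all wild-type libraries, while wild-type and M/M overlapped, since wild-type replicate 3 exceeded M/M replicate 1. The log2 fold change was -0.79 in I/M against wild-type (SE 0.16, 0.579-fold, adjusted p = 0.0018) and 0.41 in M/M against wild-type (SE 0.15, 1.33-fold, adjusted p = 0.0265). Between the mutants it was 1.20 (SE 0.15, 2.29-fold, adjusted p = 2.33e-05). The fall in I/M was -0.75 without replicate 3 of that group (adjusted p = 0.00844), and the difference between the mutants was then 1.16 (adjusted p = 0.000198). The rise in M/M lost its call without wild-type replicate 1 (0.38, adjusted p = 0.0786), without wild-type replicate 2 (0.28, adjusted p = 0.124), without M/M replicate 3 (0.30, adjusted p = 0.106) and in a fit of those 2 genotypes alone (0.40, adjusted p = 0.0551).

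The ryanodine receptors were far less abundant. *Ryr2*, the cardiac and neuronal form, was at 1.04, 1.30 and 1.11 CPM in wild-type, 1.18, 2.01 and 1.71 in KO, 2.04, 1.94 and 2.32 in I/M, and 2.10, 1.76 and 1.57 in M/M, from 53 to 168 counts a library. Both mutants lay above wild-type in every library, and KO overlapped it. In a fit of all 22519 genes with at least 10 counts over the 12 libraries, *Ryr2* rose in I/M by 0.88 on the log2 scale (SE 0.18, 1.84-fold, adjusted p = 0.00262) and in M/M by 0.64 (SE 0.18, 1.55-fold, adjusted p = 0.01). With *Ryr2* included, 6 of 10 members were called higher in M/M against wild-type in that fit, beside 22.7% of its genes, and 4 of 10 in I/M, beside 9.75%. The KO value of 0.50 (SE 0.19) had an adjusted p of 0.243, and M/M and I/M differed by -0.24 (SE 0.16, adjusted p = 0.296). In the same fit without I/M replicate 3, an alternative chosen after the data were seen, *Ryr2* was 0.81 higher in I/M than in wild-type (adjusted p = 0.0125).

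*Ryr1*, the skeletal muscle form, had 4 to 22 counts a library, and *Ryr3* had 8 to 35. No comparison called either gene in the fit of all libraries without the filter, and the largest difference of *Ryr1*, 1.02 in M/M against I/M (SE 0.42), had an adjusted p of 0.0763. It was 1.48 and called without I/M replicate 3 (adjusted p = 0.0296). For a difference against wild-type the standard errors of *Ryr1* and *Ryr3* ran from 0.39 to 0.47 on the log2 scale. Changes of this size, and larger ones, could therefore go uncalled at this depth. *Ryr3* shares 916 exon bases with *Aven* on the opposite strand, *Aven* had 185 to 480 counts a library, and use of strand in counting is not given in the sources used here, so the counts of *Ryr3* are uncertain. Of the 7 skeletal muscle markers, *Myh8* and *Myog* were at 0 in all wild-type and KO libraries, and the list summed to 1.26 to 1.45 CPM in wild-type and 1.29 to 1.81 in M/M.

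Of the 2 STIM genes, *Stim2* rose slightly in M/M lenses and *Stim1* was not called against wild-type in any genotype. *Stim1*, which responds to deep store depletion, was at 6.53, 4.94 and 6.24 CPM in wild-type, 4.86, 5.26 and 4.21 in KO, 6.55, 6.53 and 6.23 in I/M, and 7.21, 5.95 and 6.30 in M/M. Each of the 3 mutant or knockout groups overlapped wild-type. Its log2 fold change in M/M against wild-type was 0.13 (SE 0.11, adjusted p = 0.314), within a range of 1.96 SE from -0.08 to 0.35. Against KO, where *Stim1* was lowest, the M/M libraries all lay higher, by 0.44 (SE 0.11, adjusted p = 0.00385).

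*Stim2*, which senses small falls in store calcium and keeps basal levels, was the more abundant sensor. It was at 14.0, 14.6 and 13.5 CPM in wild-type, 15.4, 15.9 and 13.1 in KO, 15.7, 13.9 and 15.6 in I/M, and 16.6, 16.2 and 15.6 in M/M. The M/M libraries were above the wild-type ones, and the other groups overlapped them. The difference of M/M from wild-type was 0.20 (SE 0.07, 1.15-fold, adjusted p = 0.0247). This call was lost without wild-type replicate 1 (adjusted p = 0.0602) and without wild-type replicate 3 (0.17, adjusted p = 0.0825).

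*Orai1*, on chromosome 5 from 123015074 to 123030456, encodes the pore of the calcium release-activated channel. It was at 5.19, 6.26 and 4.74 CPM in wild-type, 6.06, 4.88 and 5.73 in KO, 7.27, 6.76 and 6.52 in I/M, and 9.80, 9.77 and 9.39 in M/M. The mutants stood in 2 steps above wild-type with no overlap, and KO was mixed with wild-type. Against wild-type the log2 fold change was 0.84 in M/M (SE 0.10, 1.79-fold, adjusted p = 6.77e-06) and 0.35 in I/M (SE 0.10, 1.27-fold, adjusted p = 0.0191). Between the mutants it was 0.50 (SE 0.09, adjusted p = 0.000672), and 0.46 without I/M replicate 3 (adjusted p = 0.00415). The difference of I/M from wild-type was 0.38 without replicate 3 of that group (adjusted p = 0.0277), and its call was lost without wild-type replicate 1 (0.31, adjusted p = 0.066), without wild-type replicate 3 (0.26, adjusted p = 0.0832) and without I/M replicate 1 (0.30, adjusted p = 0.0675).

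*Orai3*, found in mammals only and able to form channels with ORAI1, lies on chromosome 7 from 127769815 to 127775150 and had a similar profile. Its level was 3.91, 3.87 and 4.26 CPM in wild-type, 4.41, 4.41 and 4.21 in KO, 4.95, 5.41 and 5.02 in I/M, and 7.41, 7.45 and 6.43 in M/M. Again the mutant groups did not overlap each other or wild-type. The log2 fold change against wild-type was 0.82 in M/M (SE 0.08, 1.77-fold, adjusted p = 1.47e-06) and 0.35 in I/M (SE 0.08, 1.28-fold, adjusted p = 0.00611), and it was 0.37 in I/M without replicate 3 (adjusted p = 0.0141). M/M exceeded I/M by 0.47 (SE 0.08, adjusted p = 0.000249), and by 0.45 without I/M replicate 3 (adjusted p = 0.00162).

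*Orai2*, which is known to lower the current of ORAI1 channels when both are present, went the other way. It fell from 14.8 to 15.9 CPM in wild-type to 11.7 to 12.7 in I/M (log2 fold change -0.32, SE 0.05, adjusted p = 0.000413) and 10.3 to 11.1 in M/M (-0.51, SE 0.05, adjusted p = 2.22e-06). The fall depended on scaling, since with library size alone the values were -0.12 (adjusted p = 0.0744) and 0.00 (adjusted p = 0.936). In M/M it was -0.51 with TMM without crystallin genes, -0.52 with upper-quartile factors and -0.50 in DESeq2. Without I/M replicate 3 the I/M value was -0.36 (adjusted p = 0.000641). KO libraries, at 14.8 to 15.7 CPM, overlapped wild-type.

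**Figure D2:**
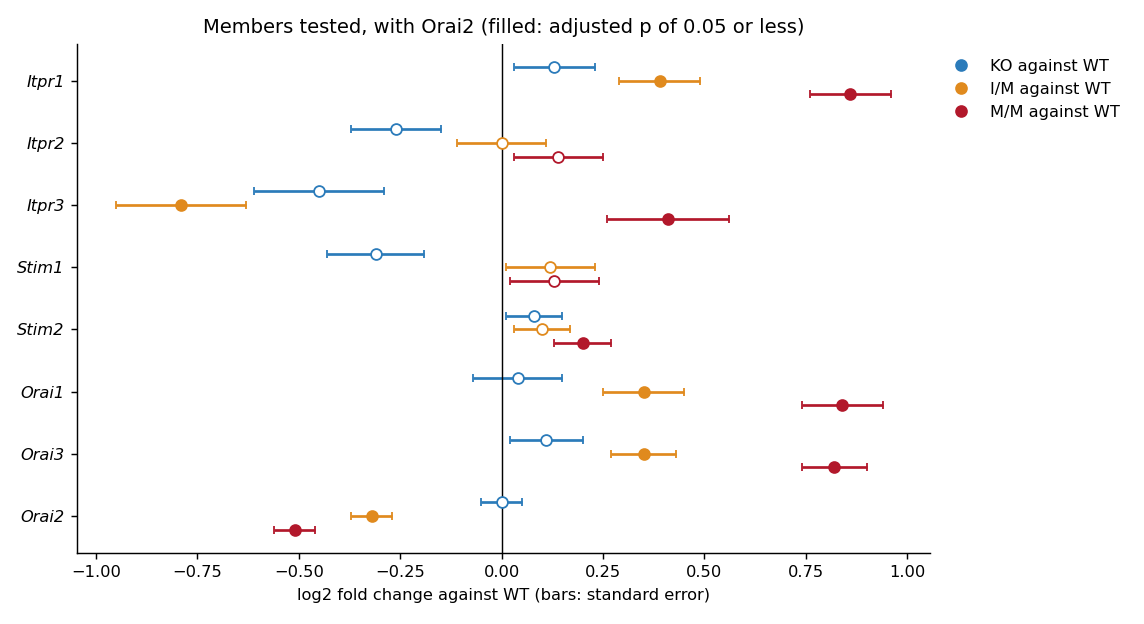
Log2 fold change against wild-type (horizontal axis) of the 7 members that passed the filter and of *Orai2*, with standard errors as bars and filled points for an adjusted p of at most 0.05. The M/M values of *Itpr1*, *Orai1* and *Orai3* cluster between 0.82 and 0.86, no KO point is filled, and *Itpr3* has filled points on both sides of 0; the *Orai2* values are not kept with library size alone.

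*Orai1* and *Orai3* lie on different chromosomes and are shown with *Itpr3*, which did not share their steps, so that the sequence before each start can be set beside these values. The sequences are from RefSeq on GRCm38.p6, forward strand, and run over the 250 bases before the annotated start: chr5:123014824-123015073 for *Orai1*, chr7:127769565-127769814 for *Orai3* and chr17:27057054-27057303 for *Itpr3*. RefSeq windows were matched by symbol for 8 of the 10 members, and there was none for *Itpr1* or *Ryr3*. Capitals mark the core motif of NFAT, the factor that calcineurin activates (GGAAA), the CCAAT box (CCAAT) and the E-box (CACGTG), searched on both strands. These 3 did not overlap each other here. The GC box (GGGCGG), AP-1 (TGANTCA), the full cAMP response element CRE (TGACGTCA) and its shorter core (TGACG), which lies within the full element, were searched too and are not in capitals.
Orai1: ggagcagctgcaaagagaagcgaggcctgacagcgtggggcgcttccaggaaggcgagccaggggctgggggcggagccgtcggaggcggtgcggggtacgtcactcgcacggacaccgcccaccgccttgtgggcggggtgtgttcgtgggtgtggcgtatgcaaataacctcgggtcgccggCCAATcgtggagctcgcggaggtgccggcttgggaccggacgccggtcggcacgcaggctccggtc
Orai3: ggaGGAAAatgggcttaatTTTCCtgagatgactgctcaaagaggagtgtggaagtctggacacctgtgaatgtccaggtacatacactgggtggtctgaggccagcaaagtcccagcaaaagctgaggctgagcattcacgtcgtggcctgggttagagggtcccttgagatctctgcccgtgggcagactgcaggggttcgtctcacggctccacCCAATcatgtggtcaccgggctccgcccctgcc
Itpr3: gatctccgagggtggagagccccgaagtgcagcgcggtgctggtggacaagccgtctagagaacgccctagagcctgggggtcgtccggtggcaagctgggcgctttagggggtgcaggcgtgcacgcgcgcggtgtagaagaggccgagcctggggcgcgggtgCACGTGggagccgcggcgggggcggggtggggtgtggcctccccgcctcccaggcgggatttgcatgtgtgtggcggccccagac
The *Orai3* window held the NFAT core at 2 places, 1 CCAAT box and 1 GC box. The *Orai1* window held 1 CCAAT box, 3 GC boxes and 1 CRE core, and no NFAT core. The *Itpr3* window held 1 E-box and 1 GC box. None of the 3 windows held AP-1 or the full CRE. Among all 32851 RefSeq windows of this length, 55.6% held the NFAT core, 33.8% a CCAAT box, 32.7% a GC box, 17.8% the CRE core, 6.75% AP-1, 6.02% an E-box and 1.55% the full CRE. G and C made up 70.8% of the *Orai1* window, 57.2% of *Orai3* and 72.0% of *Itpr3*, against a median of 52.4% over all windows. A match is a stretch of letters and not a measured site.

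Ratios within a library do not depend on how libraries were scaled. Per kilobase of exon, *Orai1* stood at 0.935 ± 0.104 (SD, n = 3) of *Orai2* in wild-type, 0.964 ± 0.0798 in KO, 1.49 ± 0.145 in I/M and 2.38 ± 0.0521 in M/M. *Orai3* relative to *Orai2* went from 0.748 ± 0.0576 in wild-type to 1.20 ± 0.0773 in I/M and 1.87 ± 0.0876 in M/M. By contrast, *Orai1* relative to *Orai3* was 1.26 ± 0.238 in wild-type, 1.19 ± 0.141 in KO, 1.25 ± 0.107 in I/M and 1.27 ± 0.0771 in M/M, with overlap between all groups. *Itpr3* relative to *Itpr1* dropped from 0.465 ± 0.115 in wild-type to 0.207 ± 0.0355 in I/M and stood at 0.338 ± 0.055 in M/M. *Stim1* relative to *Stim2* was 0.209 ± 0.0362 in wild-type, 0.16 ± 0.00392 in KO, 0.212 ± 0.0179 in I/M and 0.199 ± 0.0171 in M/M. The KO libraries all lay below the wild-type ones in this ratio, and both mutants overlapped wild-type. Without I/M replicate 3 the I/M means were 1.56 for *Orai1* to *Orai2*, 1.24 for *Orai3* to *Orai2*, 1.27 for *Orai1* to *Orai3*, 0.209 for *Itpr3* to *Itpr1* and 0.22 for *Stim1* to *Stim2*. Of 45 comparisons of 9 such ratios, 21 had groups with no overlap, each at the smallest two-sided p that an exact permutation test of 3 against 3 can give, 0.1 (0.214 after Benjamini–Hochberg adjustment), so that none could pass 0.05.

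Expressed as shares, *Orai2* made up 37.3% ± 0.64 of ORAI transcripts per length in wild-type lenses, 36.1% ± 0.673 in KO, 27.2% ± 1.46 in I/M and 19.0% ± 0.294 in M/M (SD, n = 3). The *Orai1* share was 34.8% ± 3.26 in wild-type and 45.3% ± 1.1 in M/M, and the *Orai3* share was 27.9% ± 2.62 and 35.7% ± 1.26. Among the IP3 receptors *Itpr1* held 57.8% ± 4.49 in wild-type, 65.8% ± 2.93 in KO, 70.7% ± 2.99 in I/M and 66.6% ± 2.22 in M/M. *Stim2* made up 82.8% ± 2.53 of STIM transcripts in wild-type, 82.5% ± 1.21 in I/M and 83.4% ± 1.19 in M/M. In KO it made up 86.2% ± 0.291, and the KO libraries, at 85.9% to 86.5%, lay above the wild-type range of 81.2% to 85.7%. Without I/M replicate 3 the I/M means were 26.3% for *Orai2*, 71.7% for *Itpr1* and 82% for *Stim2*.

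**Figure D3:**
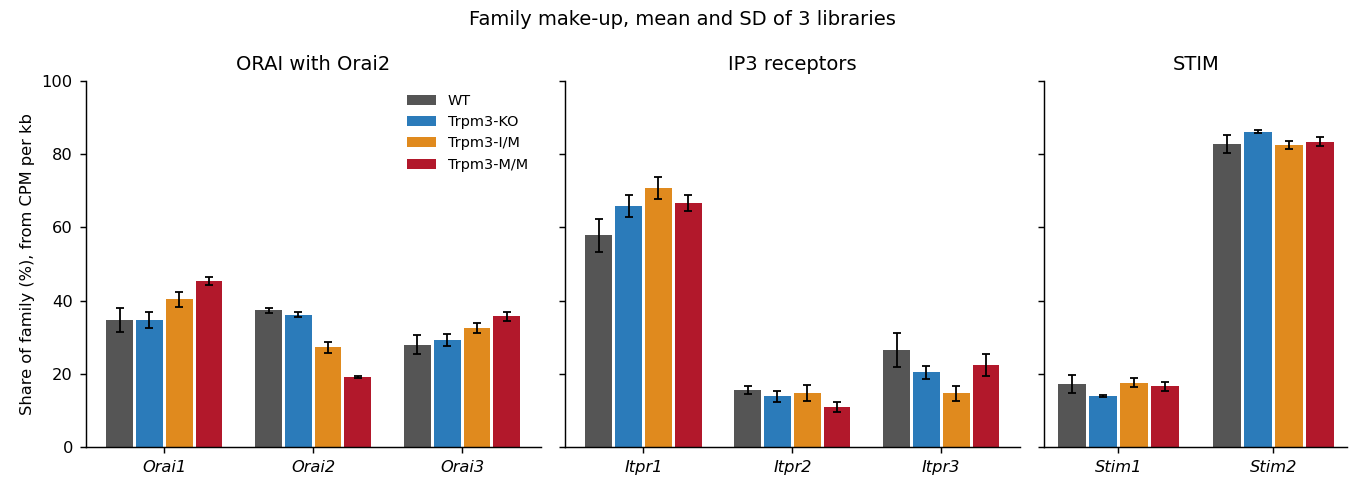
Share of each gene (vertical axis, percent, from CPM per kb of exon) within the ORAI, IP3 receptor and STIM families, as the mean (bars) and SD (error bars) of 3 libraries of each genotype. The *Orai2* share falls from 37.3% in wild-type to 19.0% in M/M, and the *Stim2* share is 82.8% in wild-type and 86.2% in KO.

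Levels can be ranked between genes only per length. In wild-type lenses *Stim2* led the members with 2.74 ± 0.108 CPM per kb (SD, n = 3), followed by *Orai1* with 2.35 ± 0.341, *Orai3* with 1.87 ± 0.101 and *Itpr1* with 1.59 ± 0.118. *Stim2* and *Orai1* overlapped in their ranges, and the other neighbours did not. A lower tier held *Itpr3* (0.732 ± 0.158), *Stim1* (0.569 ± 0.0818) and *Itpr2* (0.429 ± 0.0115), of which *Itpr3* and *Stim1* overlapped. *Ryr2* was at 0.040 ± 0.00469, *Ryr3* at 0.0127 ± 0.00465 and *Ryr1* at 0.00676 ± 0.00223, the last pair overlapping. In M/M lenses *Orai1* led with 4.21 ± 0.1, above every *Orai3* value (3.32 ± 0.27), and *Orai3* overlapped *Stim2* (3.14 ± 0.0939), while *Itpr1* followed at 2.88 ± 0.0379. In I/M lenses *Orai1* (2.98 ± 0.167) and *Stim2* (2.93 ± 0.194) overlapped, and *Itpr3* (0.425 ± 0.0308) overlapped *Itpr2* (0.428 ± 0.058). The KO order was that of wild-type.

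**Figure D4:**
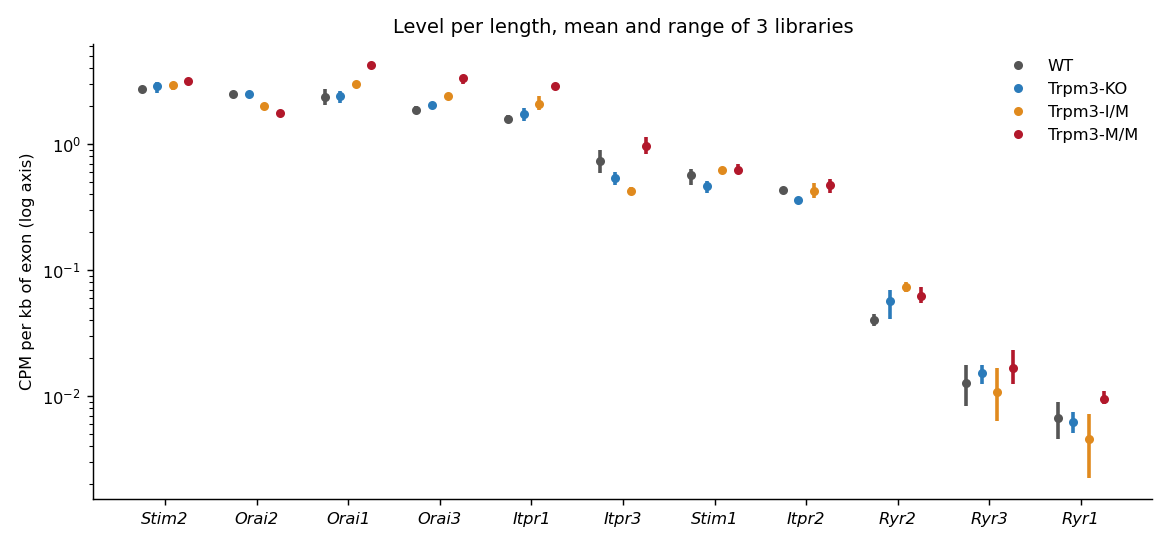
CPM per kb of exon (vertical log axis) of the 10 members and *Orai2*, ordered by their wild-type mean, with points for the mean and lines for the range of 3 libraries of each genotype. *Stim2*, the ORAI genes and *Itpr1* form an upper tier above 1 CPM per kb, and the ryanodine receptors lie below 0.1.

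In KO lenses none of these genes was called. In KO against wild-type, edgeR called 0 of the 7 tested members, with 2.16% of all genes called higher and 2.2% lower. DESeq2 also called 0, and 3 members, *Itpr2*, *Itpr3* and *Stim1*, were under an unadjusted p of 0.05, all with lower means in KO. The values were -0.45 for *Itpr3* (SE 0.16, adjusted p = 0.138) and -0.31 for *Stim1* (SE 0.12, adjusted p = 0.181), while *Itpr1* was at 0.13 (SE 0.10), *Orai1* at 0.04 (SE 0.11) and *Orai3* at 0.11 (SE 0.09). For *Orai1* the range of 1.96 SE ran from -0.16 to 0.25.

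Set directly against KO, M/M was called higher for 6 of the 7 tested members, all but *Stim2*, where 32.3% of all genes were called higher and 32.4% lower. The differences were 0.73 for *Itpr1* (SE 0.10), 0.39 for *Itpr2* (SE 0.11), 0.86 for *Itpr3* (SE 0.15), 0.44 for *Stim1* (SE 0.11), 0.80 for *Orai1* (SE 0.10) and 0.71 for *Orai3* (SE 0.08). *Stim2* stood at 0.13 (SE 0.07, adjusted p = 0.134). Against I/M, M/M was called higher for *Itpr1*, *Itpr3*, *Orai1* and *Orai3*, 4 of 7, beside 25.6% of all genes higher and 25.7% lower. *Itpr3* alone also had a fold change of at least 2 there, which 4.7% of genes had. The median difference of the 7 tested members was 0.41 in M/M and 0.12 in I/M against wild-type, and the median of all genes was 0.00 in both, but which members were tested depended in part on their level in the mutants.

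How libraries were scaled bears on all of these values. With library size alone, the median of all genes tested moved up by 0.50 in M/M and by 0.20 in I/M against wild-type. In M/M, 7 of 7 members were then called higher, at 1.37 for *Itpr1*, 1.35 for *Orai1*, 1.33 for *Orai3*, 0.92 for *Itpr3*, 0.71 for *Stim2* and 0.64 for both *Itpr2* and *Stim1*. Of the 8984 genes tested, 7364 were then called higher and 495 lower, so that most genes tested were also called higher. Of all called genes 93.7% were then higher, against 50% with TMM factors. *Itpr3* remained lower in I/M than in wild-type under each scaling tried.

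Other genes of the pathway were counted by role in lists written from general knowledge, with 77 of 122 listed genes tested. In M/M against wild-type 38 were called higher and 20 lower, with a median log2 fold change of 0.21. With library size alone the split was 69 higher and 2 lower, where 7364 of all 8984 genes tested were higher and 495 lower. In I/M 28 were higher and 12 lower with TMM factors and 47 and 3 with library size alone, and in KO 1 was higher and 2 were lower. Of all 8984 genes, library size alone called 4661 higher and 355 lower in I/M. The 9 genes named below with their values kept their direction in M/M and I/M under library size alone, and *Orai2* did not, as given above. Of all genes tested 31.4% were higher and 31.4% lower in M/M, and 17.3% and 15.3% in I/M, against 49.4% and 26% of the 77 in M/M and 36.4% and 15.6% in I/M. Of the 77, 9 would not have passed the filter without the M/M libraries, *Plcb1*, *Inpp5k*, *Itpripl2*, *Homer2*, *Rnf170*, *Fkbp1b*, *Trpc4*, *Esyt1* and *Nfatc1*, so that the counts lean towards genes high in M/M. Among the other 68, 31 were higher and 20 lower in M/M, where 27.9% and 34.1% of all genes that passed without M/M were. In I/M, leaving out replicate 3 gave 26 of the 77 higher and 10 lower.

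Upstream of the IP3 receptors, the G proteins and phospholipases that make IP3 had 8 tested genes, of which 2 were higher and 3 lower in M/M, and none higher and 5 lower in I/M. These shares are 25% higher and 37.5% lower in M/M, near those of all genes. In I/M they are 0% higher and 62.5% lower, where 17.3% and 15.3% of all genes were. Without *Plcb1*, which would not have passed the filter without M/M, 1 of 7 was higher and 3 were lower in M/M. Of the 3 tested genes of IP3 removal, 2 were higher in M/M, where 31.4% of all genes were, and 1 of these, *Inpp5k*, would not have passed the filter without M/M. *Itpkb*, a kinase that turns IP3 into IP4, rose from 7.50 ± 0.0912 CPM in wild-type to 18.8 ± 1.35 in I/M and 35.0 ± 1.24 in M/M (log2 fold change 2.22, SE 0.06, adjusted p = 7.62e-12), and it fell to 5.55 ± 0.224 in KO (-0.43, SE 0.07, adjusted p = 0.00145). Its log2 fold change in I/M without replicate 3 was 1.35 (adjusted p = 2.23e-08). Among IP3 receptor partners 3 of 12 were higher and 2 lower in M/M, 25% and 16.7%, both below the shares of all genes. Without *Itpripl2*, *Homer2* and *Rnf170*, which would not have passed the filter without M/M, 2 of 9 were higher and 2 lower. *Itpripl2*, named for its likeness to an IP3 receptor-interacting protein, went from 0.604 ± 0.0826 CPM in wild-type to 2.26 ± 0.318 in I/M and 9.75 ± 0.821 in M/M (log2 fold change 4.01, SE 0.14, adjusted p = 7.17e-11). The I/M value without replicate 3 was 2.01 (adjusted p = 7.89e-07).

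Of the ryanodine receptor partners 4 of 8 were higher (50%) and 3 lower (37.5%) in M/M, where 31.4% of all genes were called in each direction. Without *Fkbp1b*, which would not have passed the filter without M/M, 3 of 7 were higher and 3 lower. Of all genes that passed without M/M, 27.9% were higher and 34.1% lower. *Fkbp1b*, a prolyl isomerase that binds the cardiac receptor and steadies its closed state, rose from 2.57 ± 0.218 CPM in wild-type to 4.27 ± 0.0767 in I/M (0.73, SE 0.11, adjusted p = 0.000157) and 7.27 ± 0.753 in M/M (1.50, SE 0.10, adjusted p = 3.9e-08). In I/M it was 0.71 without replicate 3 (adjusted p = 0.000814).

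Partners of store-operated entry were called higher for 6 of 9 and lower for 1, *Orai2*, in M/M, and higher for 5 and lower for 1 in I/M, or 4 and 1 without I/M replicate 3. Of all genes tested, 31.4% were called in each direction in M/M, and 17.3% higher and 15.3% lower in I/M. *Trpc4* and *Esyt1* would not have passed the filter without M/M, so that their calls were in part fixed by it. Among the other 7, 4 were higher and 1 lower in M/M. Of all genes that passed without M/M, 27.9% were higher and 34.1% lower. *Trpc4*, a cation channel that opens downstream of phospholipase C, had 0 to 2 counts in each wild-type and KO library, 48 to 94 in I/M and 574 to 742 in M/M, where it stood at 7.35 ± 0.632 CPM. It stayed called in I/M without replicate 3 (adjusted p = 5.73e-05). *Esyt1*, a tether between the endoplasmic reticulum and the plasma membrane, rose from 1.89 ± 0.293 CPM in wild-type to 5.37 ± 0.33 in M/M (1.50, SE 0.13, adjusted p = 2.5e-07). In I/M its value was 0.44 (SE 0.13, adjusted p = 0.0218), and without replicate 3 it was 0.33 and not called (adjusted p = 0.0882).

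Genes of store refilling and leak were split, with 2 of 6 higher and 2 lower in M/M, near the shares of all genes. The calcium-binding proteins and chaperones of the endoplasmic reticulum were called higher for 8 of 11 and lower for 1 in M/M, and for 7 and none in I/M (6 and none without I/M replicate 3). The shares are 72.7% higher and 9.09% lower in M/M, where 31.4% of all genes were called in each direction. In I/M 63.6% were higher, where 17.3% of all genes were higher and 15.3% lower. *Hspa5*, the chaperone BiP, rose from 102.9 ± 3.41 CPM in wild-type to 168.5 ± 11.9 in I/M (0.71, SE 0.06, adjusted p = 1.53e-06) and 223.5 ± 13.8 in M/M (1.12, SE 0.06, adjusted p = 4.48e-09), and its I/M value without replicate 3 was 0.65 (adjusted p = 6.2e-06). Mitochondrial uptake genes were split at 5 of 11 higher (45.5%) and 6 lower (54.5%) in M/M, beside 31.4% of all genes in each direction.

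Calcineurin and NFAT genes, which read store-operated entry in many cells, were called higher for 6 of 9 and lower for 2 in M/M. These are 66.7% and 22.2%, where 31.4% of all genes were called in each direction. Without *Nfatc1*, which would not have passed the filter without M/M, 5 of 8 were higher and 2 lower. Of all genes that passed without M/M, 27.9% were higher and 34.1% lower. *Nfatc1*, a transcription factor of this group, was at 0.782 ± 0.145 CPM in wild-type, 1.04 ± 0.0758 in KO, 4.13 ± 0.511 in I/M and 7.89 ± 0.593 in M/M (3.34 against wild-type, SE 0.14, adjusted p = 3.23e-10). *Rcan1*, a calcineurin regulator and itself a textbook NFAT target, was at 22.8 ± 2.45, 23.4 ± 2.41, 56.2 ± 5.15 and 79.3 ± 2.65 CPM in the same order (1.80 in M/M, SE 0.09, adjusted p = 2.02e-09). *Rcan3*, of the same family, went from 6.19 ± 0.209 in wild-type to 12.5 ± 1.09 in M/M (1.02, SE 0.07, adjusted p = 7.21e-08). Without I/M replicate 3 the I/M values were 2.46 for *Nfatc1* (adjusted p = 2.31e-07), 1.37 for *Rcan1* (adjusted p = 4.57e-07) and 0.29 for *Rcan3* (adjusted p = 0.0266).

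**Figure D5:**
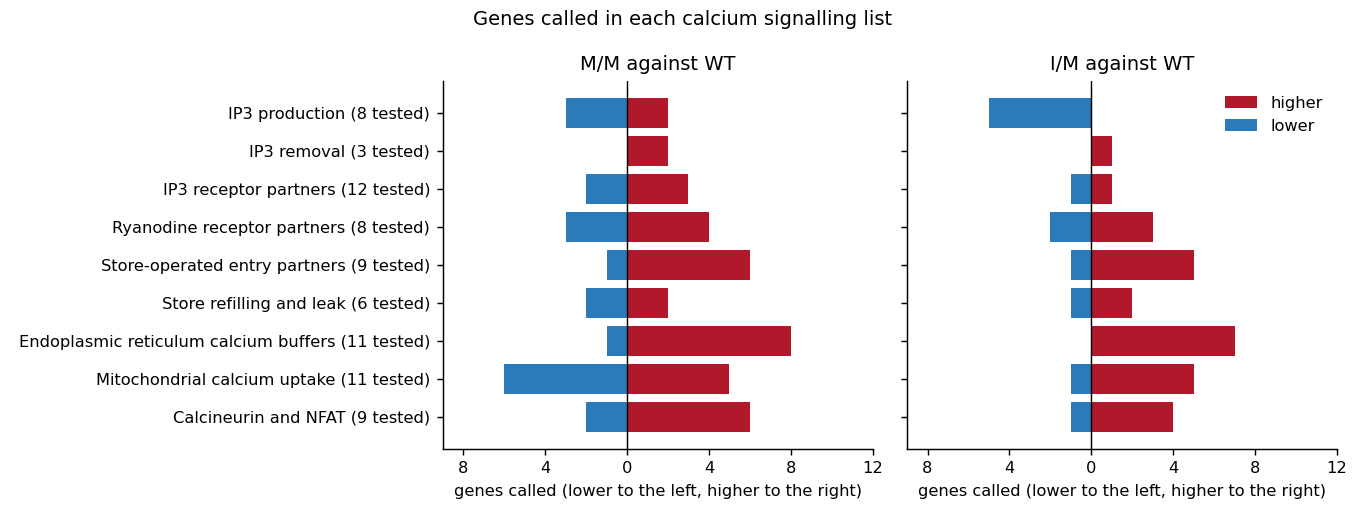
Number of genes called higher (right) and lower (left) against wild-type in each list of calcium signalling genes (rows, with the number tested), in M/M and I/M lenses with TMM factors. Endoplasmic reticulum calcium buffers have 8 of 11 genes higher in M/M and 7 in I/M, the mitochondrial list is split, and 31.4% of all genes tested were called in each direction in M/M.

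Over the 12 libraries, which share genotype and depth, the genes with the profile closest to each called member were found by Pearson's r of log2 CPM, given as a description. *Dlc1*, *Maoa* and *Rev3l* were closest to *Itpr1* (r = 0.978, 0.967 and 0.966), and *Eva1a*, *Fgfr1* and *Tgfbr3* to *Orai1* (r = 0.982, 0.981 and 0.978). *Gclm*, *Apcdd1* and *Arfgef2* were closest to *Orai3* (r = 0.986, 0.982 and 0.981). *Itpr3* was followed most closely by *Man2b1*, *Reep3* and *Zfp521* (r = 0.945, 0.944 and 0.926), each of which had a lower mean in I/M than in wild-type and a higher one in M/M. For *Stim2* the closest genes, *Rhog*, *Prkcd* and *Gys1*, had lower r (0.853, 0.844 and 0.839).

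Some markers of cells outside the lens proper moved with the same genotypes, and others did not. The 8 vascular endothelium markers summed to 5.86 to 8.27 CPM in wild-type, 6.09 to 6.85 in KO, 18.3 to 26.4 in I/M and 55.7 to 66.2 in M/M. *Tek* held most of the wild-type sum, at a mean of 5.70 CPM, and was at 12.5 in I/M and 11.8 in M/M. All other markers of this list had higher means in M/M than in I/M. Of the 6 tested, 5 would not have passed the filter without M/M (*Pecam1*, *Cdh5*, *Flt1*, *Tie1* and *Cldn5*), so that their calls in M/M were in part fixed by the filter. The 6 pericyte and smooth muscle markers summed to 74.0 to 90.2 CPM in wild-type, 66.0 to 72.0 in KO, 97.4 to 123.6 in I/M and 232.0 to 324.4 in M/M, and of the 5 tested, 3 (*Rgs5*, *Cspg4* and *Tagln*) would not have passed without M/M. *Acta2* held most of this sum, with means of 68.3 CPM in wild-type, 49.4 in KO, 90.5 in I/M and 211.6 in M/M. *Myh11* was at 0.625 in wild-type and 1.14 in M/M, and *Pdgfrb* at 12.1 in wild-type, 17.9 in KO and 17.2 in M/M. None of these markers was at 0 in any genotype. The 7 macrophage markers, none of which passed the filter, summed to 0.278 to 0.452 CPM in wild-type, 0.822 to 0.948 in I/M and 8 to 14.8 in M/M, and 6 lens epithelium markers went from 338.9 to 383.4 in wild-type to 255.8 to 267.4 in M/M, with 2 called higher and 3 lower. Photoreceptor markers summed to 0.651 to 0.833 CPM in wild-type and 1.49 to 3.78 in M/M, red blood cell markers to 1.18 to 11.1 and 11.9 to 13.9, and cornea markers, 4 of 5 at 0 in wild-type, to at most 0.0396 and 1.6. Other neural retina markers overlapped, at 4.86 to 5.95 CPM in wild-type and 4.09 to 6.33 in M/M, as did those of pigmented cells, at 3.09 to 3.63 and 2.89 to 3.46, although these stood at 5.32 to 6.17 in I/M. The 5 markers of the ciliary non-pigmented epithelium summed to less in the mutants, at 13.1 to 16.3 CPM in wild-type, 8.27 to 9.68 in I/M and 9.67 to 10.9 in M/M. Means of *Opn3*, *Msx1* and *Aqp4* were lower in both mutants. In M/M *Zic1* was higher, at 0.893 CPM against 0.0272 in wild-type, as was *Zic2*, at 0.221 against 0.0403. Of the 2 tested markers, 1 was called lower in M/M and 2 in I/M. The part of any of these cell types in the rise of *Itpr1*, *Orai1*, *Orai3* or *Ryr2* was not tested.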

How the data were processed

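The deposited values are estimated counts per gene, made by the authors with DRAGEN against the Ensembl mouse assembly (mm10, which is GRCm38), not normalized and not pooled over libraries. Base calls were made with bcl2fastq2. The authors also deposited a table of 9470 genes with the same counts, CPM, log2 fold changes and p-values of their own comparisons, of which only the counts were read, as a check of the columns. Of the values 88.4% were whole (tolerance 1e-09), and all were rounded. The test had been chosen for whole counts. Identifiers listed more than once (168, with equal values) were used once. Replicates differed by more than sampling noise, with a mean chi-square per gene of 8.76 to 57.4 between libraries of a genotype. Nothing in the labels gives animals or litters, so p-values measure the spread between these libraries.

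Genes were kept with a CPM of 5 or more in 3 or more libraries, as the study did. This CPM was scaled by library size alone. The genes kept were fitted in edgeR 4.0.16 (R 4.3.3) with TMM factors, all 12 libraries and genotype as the only factor. Quasi-likelihood tests were adjusted by Benjamini–Hochberg over all genes tested in a comparison. A call is an adjusted p of at most 0.05, and a fold change of at least 2 was counted besides. Standard errors follow from the fold change and the F statistic. Exon lengths and coordinates came from GENCODE vM21. Log2 CPM used a prior count of 2. Genes named were all members, *Trpm3*, at most 3 genes of each pathway list past both thresholds in *Trpm3*-M/M against wild-type, and the 3 genes closest to each member called there. *Orai2*, *Xist*, *Ddx3y*, *Aven* and single markers were named beside these, after their values were seen.

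The members and gene lists were chosen with earlier results of these data known. Alternatives were library size only, TMM without crystallin genes, upper-quartile factors, DESeq2 1.42.0, CPM of at least 1, no filter beyond 10 counts in all, only the genotypes compared, a replicate block and leaving out each library. Leaving out each library without the filter, for the ryanodine receptors, and I/M ratios and shares without replicate 3 were added after the data were seen. Replicate numbers did not pair the libraries. The procedure was tested on simulated counts, where 48 of 50 genes changed 2-fold in M/M were recovered and 6 of 8784 unchanged genes were called. Few genes were changed there, up and down alike, so that the simulation did not test scaling when many genes change. Python 3.11.15, scipy 1.17.1, pandas 2.3.3 and matplotlib 3.10.9 served for the rest.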

Additional observations from a re-analysis of the deposited data

How the results depend on the processing

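Asking for a fold change of at least 2 as well left 0 members called in M/M against wild-type, 0 in I/M against wild-type, 1 in M/M against I/M and 0 in M/M against KO. Library size alone called 7 members in M/M against I/M in place of 4, all higher, where 6326 of 8984 genes were called higher and 488 lower. In a fit of the 2 genotypes compared, 2 members were called in I/M against wild-type in place of 4, since *Itpr3* and *Orai3* did not pass the filter in those 6 libraries. Leaving out 1 library at a time gave 3 to 5 members called in M/M against wild-type, where 3 were called without wild-type replicate 1, 3 to 4 in I/M, 0 in KO, 4 in M/M against I/M and 6 against KO. Values with no call changed sign for *Itpr2* in I/M against wild-type, at 0.20 with library size alone, 0.01 without a filter, 0.01 in a fit of the 2 genotypes and -0.11 to 0.08 over the 12 fits that left out 1 library, for *Stim1* in M/M against I/M, at -0.01 with CPM of at least 1, -0.02 without a filter, and, over those 12 fits, between -0.05 and 0.09 (lowest without M/M replicate 1), and for *Orai1* in KO against wild-type, at -0.04 to 0.16 over those 12 fits, with -0.04 without wild-type replicate 3 and -0.02 without KO replicate 1. Leaving out 1 library in the fit without a filter, added after the data were seen, gave signs on both sides of 0 for *Ryr1* in KO (-0.34 to 0.14) and *Ryr3* in I/M (-0.69 to 0.06, with 0.04 without I/M replicate 2) against wild-type, and for *Ryr2* (-0.05 to 0.30) and *Ryr3* (-0.18 to 0.28, with -0.03 without KO replicate 2) in M/M against KO. The cause was not tested. Over all 881 refitted values of single members, 845 kept their direction and side of the threshold, 9 lost and 9 gained a call, and 18 changed sign. With the replicate number as a block, 5 members were called in M/M against wild-type, 4 in I/M, 0 in KO, 4 in M/M against I/M and 6 against KO, as without it. Deviations of same-numbered libraries from their group means correlated at -0.26 to 0.15 over 18 pairs. Depth limits *Ryr1* and *Ryr3*, with at most 35 counts a library.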

Other observations

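Across the 12 libraries log2 CPM of *Orai1* and *Orai3* had r = 0.91, and *Itpr1* had r = 0.87 with *Orai1* and 0.94 with *Orai3*. After each genotype's mean was taken away, the same pairs had r = -0.27, -0.21 and 0.23. These are descriptions of 12 libraries that share genotype.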
